A study of Mus musculus with 6 samples.

Results

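The genes of the vascular endothelial growth factor (VEGF) axis were followed in libraries of a carcinoma line with Sox2 knocked out or overexpressed. The libraries also differed in markers of other cell types, given below. The axis was taken as 9 genes by symbol, among 55385 mouse genes in the count table: the ligand genes Vegfa, Vegfb, Vegfc and Pgf, the neuropilin genes Nrp1 and Nrp2, and the receptor kinase genes Kdr, Flt1 and Flt4. All 9 were found and all 9 passed the filter on low counts. The libraries came from PDVC57, an established mouse squamous carcinoma line of keratinocyte origin, with 3 libraries of genotype Sox2 KO (knockout) and 3 of genotype Sox2 overexpression. The series' text states that cells low or high in Sox2 were taken from grafted tumours, and its question was which Sox2-driven programmes of tumour stem cells act on neutrophils. The knockout guide, the overexpression vector, the number of clones, and the strain and age of the host animals are not given in the sources used here. No parental PDVC57 group is among the libraries, so each difference is between overexpression and knockout and has no untreated level beside it.

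VEGF ligands are secreted dimers that drive the growth and permeability of vessels. VEGF-A signals mainly through the receptor kinase KDR (VEGFR2), FLT1 (VEGFR1) binds VEGF-A, VEGF-B and placental growth factor (encoded by Pgf), and FLT4 (VEGFR3) binds VEGF-C and VEGF-D and is best known from lymphatic vessels. Neuropilins have no kinase of their own. They bind VEGFs beside the kinases and class 3 semaphorins beside plexins, and they are found on epithelial and tumour cells as well as on endothelium. In skin and squamous tumours VEGF-A comes largely from keratinocytes and carcinoma cells, whereas the receptor kinases are mostly studied on endothelial cells.

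Library totals lay between 31247976 and 38543221 counts. Sox2 itself was at 0.685 to 1.44 CPM (the count scaled by the normalized size of its library) in the knockout libraries and at 78.3 to 128 CPM in the overexpression libraries, so its level separated the groups as labelled. Keratinocyte and carcinoma markers were present throughout, with a summed level of 4427 to 7072 CPM with knockout and 10240 to 14310 CPM with overexpression for 12 genes. Fibroblast markers were also present in the knockout libraries: 10 genes summed to 57390 to 85820 CPM there and to 268 to 422 CPM with overexpression. The bulk libraries cannot tell fewer cells of a type from less RNA per cell. Nothing in the labels says that the replicates came from separate tumours, so p-values measure the spread between these libraries, which may be technical.

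Of the 9 genes, 6 differed between the groups with an adjusted p under 0.05 in the edgeR quasi-likelihood test, where 31.6% of all tested genes did. Of all calls 43.1% were higher, and only 2.16% when the libraries were scaled to keratinocyte and carcinoma markers. The receptor kinase genes Kdr, Flt1 and Flt4 and the ligand gene Vegfc were lower with overexpression, where 18.0% of tested genes were called lower. Nrp1 and Nrp2 were higher, where 13.6% of tested genes were called higher. Vegfa, Vegfb and Pgf did not pass the threshold. The 2 groups' ranges were apart for 7 of the 9 genes, and for 50.9% of all tested genes. The median log2 fold change of the 9 genes was -0.68, beside -0.02 over all tested genes.

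**Figure D1:**
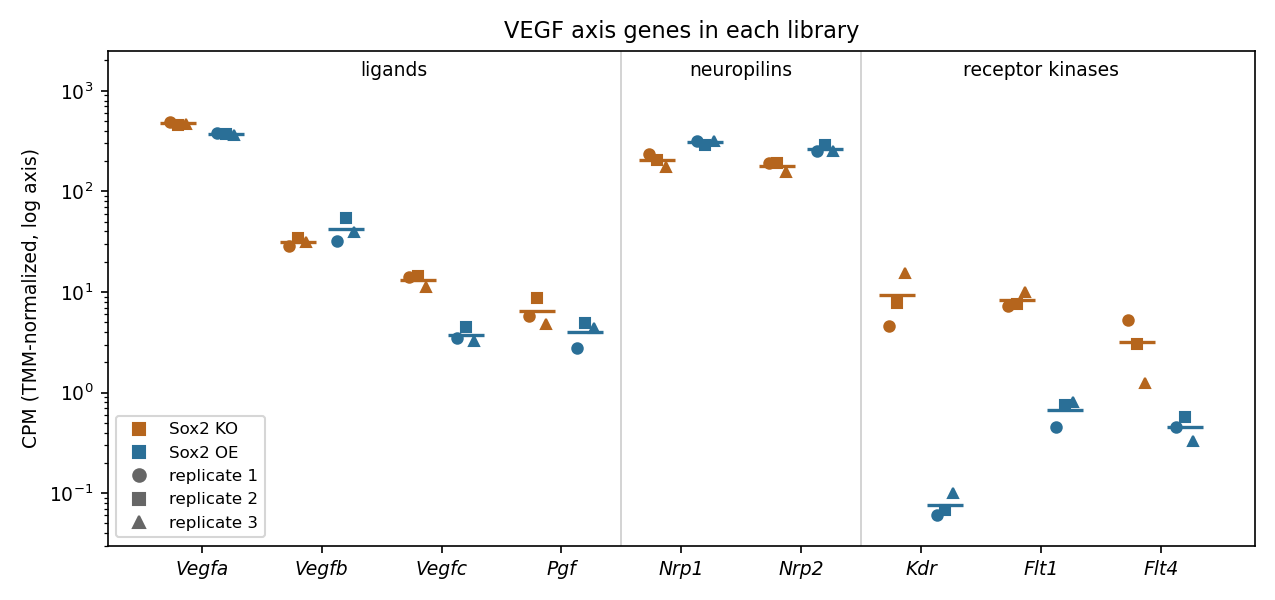
Level of each gene in each library, in CPM on a log axis. Points are libraries (knockout in brown, overexpression in blue, the marker shape giving the replicate number) and horizontal lines are group means. Vegfa, Nrp1 and Nrp2 stay above 100 CPM in every library, while Kdr drops from 4.60 to 15.4 CPM with knockout to 0.0610 to 0.101 CPM with overexpression.

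The start regions of the called receptor genes are shown because these genes were called in opposite directions, the kinases lower and the neuropilins higher. The neuropilins changed sign when the libraries were scaled to keratinocyte and carcinoma markers (log2 fold change -0.71 for Nrp1 and -0.75 for Nrp2). The windows are RefSeq's on GRCm38.p6 and run from 250 bases before to 50 bases after the annotated start, in the direction of the gene: Kdr at chr5:75978406-75978705 (minus strand), Flt1 at chr5:147725962-147726261 (minus strand), Flt4 at chr11:49609429-49609728 (plus strand), Nrp1 at chr8:128358823-128359122 (plus strand) and Nrp2 at chr1:62703067-62703366 (plus strand). Capitals mark GGAA or its reverse complement TTCC, the core bound by ETS factors, a family with known roles in endothelial gene expression.
Kdr: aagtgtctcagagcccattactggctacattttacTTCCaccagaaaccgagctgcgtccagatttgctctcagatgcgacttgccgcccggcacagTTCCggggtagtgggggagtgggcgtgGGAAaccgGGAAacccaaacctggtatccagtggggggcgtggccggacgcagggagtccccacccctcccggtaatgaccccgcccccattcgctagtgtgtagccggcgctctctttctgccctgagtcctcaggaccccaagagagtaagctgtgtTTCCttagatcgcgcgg
Flt1: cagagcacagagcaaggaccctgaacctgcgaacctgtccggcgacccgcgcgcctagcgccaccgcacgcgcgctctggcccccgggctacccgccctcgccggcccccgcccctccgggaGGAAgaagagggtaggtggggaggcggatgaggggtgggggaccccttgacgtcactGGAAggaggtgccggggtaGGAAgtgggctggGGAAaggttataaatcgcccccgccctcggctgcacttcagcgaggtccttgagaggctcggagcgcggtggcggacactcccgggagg
Flt4: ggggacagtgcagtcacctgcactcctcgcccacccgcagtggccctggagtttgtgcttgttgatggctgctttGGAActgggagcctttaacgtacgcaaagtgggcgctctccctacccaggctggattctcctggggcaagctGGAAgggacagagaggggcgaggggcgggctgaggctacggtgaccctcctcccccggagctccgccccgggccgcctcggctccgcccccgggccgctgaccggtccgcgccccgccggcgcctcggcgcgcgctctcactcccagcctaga
Nrp1: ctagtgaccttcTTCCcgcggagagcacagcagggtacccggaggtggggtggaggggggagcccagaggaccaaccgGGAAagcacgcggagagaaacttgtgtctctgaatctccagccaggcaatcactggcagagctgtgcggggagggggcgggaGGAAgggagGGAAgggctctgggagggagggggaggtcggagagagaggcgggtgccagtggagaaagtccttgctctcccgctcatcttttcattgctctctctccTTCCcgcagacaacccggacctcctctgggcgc
Nrp2: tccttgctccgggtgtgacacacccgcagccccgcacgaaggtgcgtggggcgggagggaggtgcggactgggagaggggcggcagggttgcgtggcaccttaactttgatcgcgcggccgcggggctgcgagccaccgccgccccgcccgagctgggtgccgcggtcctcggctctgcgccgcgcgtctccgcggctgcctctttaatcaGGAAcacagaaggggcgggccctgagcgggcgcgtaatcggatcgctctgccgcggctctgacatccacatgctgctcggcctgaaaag

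The ETS core occurred 5 times in the Kdr window, 4 in that of Flt1, 2 in that of Flt4, 5 in that of Nrp1 and 1 in that of Nrp2. Across 32851 promoter windows of the same length, 96.0% held it at least once, with a median of 3 matches. The windows of the receptor genes called lower and of those called higher therefore spanned overlapping numbers of matches. A cyclic AMP response element, TGACGTCA, was found in the Flt1 window and in 1.79% of all windows. The SOX core letters AACAAT and ACAAAG, searched on both strands, were in none of the 11 windows of the 9 genes, and in 10.7% and 18.7% of all windows. The hypoxia response core ACGTG was in 1 of the 11, the second window of Vegfa at chr17:46025114-46025413, and in 19.6% of all windows. The motifs were searched separately and matches are descriptions of letters only. GC content was 60.7% in the Kdr window, 70.7% in those of Flt1 and Nrp2, 70.3% in that of Flt4 and 64.0% in that of Nrp1, against a median of 52.7% over all windows.

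Vegfa (ENSMUSG00000023951, chromosome 17, 46016993 to 46032369, minus strand, GRCm38) encodes the ligand of KDR and FLT1 and was the highest gene of the axis in every library. Its level was 493, 454 and 472 CPM in knockout replicates 1, 2 and 3 and 381, 375 and 365 CPM in overexpression replicates 1, 2 and 3. Every overexpression library lay below every knockout library, with means of 374 ± 8.43 and 473 ± 19.2 CPM (SD, n = 3 each). The log2 fold change (± SE) came to -0.34 ± 0.14 and missed the threshold (edgeR, adjusted p = 0.101). A change of this size, 0.790-fold, left Vegfa among the abundant transcripts in both groups.

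Vegfb (ENSMUSG00000024962, chromosome 19, 6982473 to 6987651, minus strand) encodes a ligand of FLT1. It stood at 28.5, 34.5 and 31.4 CPM in the knockout libraries and at 31.98, 54.5 and 39.6 CPM in the overexpression libraries. The groups overlapped, since overexpression replicate 1 lay below knockout replicate 2. The log2 fold change of 0.42 (SE 0.21) missed the threshold (edgeR, adjusted p = 0.163).

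Pgf (ENSMUSG00000004791, chromosome 12, 85166635 to 85177790, minus strand), which encodes placental growth factor, was measured at 5.77, 8.70 and 4.85 CPM with knockout and 2.75, 4.87 and 4.401 CPM with overexpression. These ranges also overlapped, with overexpression replicate 2 just above knockout replicate 3. Its log2 fold change (± SE) came to -0.68 ± 0.33 (edgeR, adjusted p = 0.147). With libraries scaled to keratinocyte and carcinoma markers it was -1.99 and passed the threshold (adjusted p = 0.000495).

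Vegfc (ENSMUSG00000031520, chromosome 8, 54077606 to 54187096, plus strand) was the one of these 4 ligand genes that passed the threshold. VEGF-C is the main ligand of FLT4 in the growth of lymphatic vessels. Its level was 14.04, 14.4 and 11.2 CPM in the knockout libraries and 3.45, 4.47 and 3.24 CPM in the overexpression libraries. The highest overexpression library, replicate 2, lay below the lowest knockout library, replicate 3. The log2 fold change (± SE) came to -1.83 ± 0.23, a level 3.55-fold lower with overexpression (edgeR, adjusted p = 0.000457).

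Compared per length of exon, as CPM divided by the exon length in kilobases (RPKM), Vegfa made up 77.8% to 81.9% of the summed level of the 4 ligand genes in the knockout libraries and 70.0% to 80.0% in the overexpression libraries. Vegfb was the next ligand, at 12.6% to 15.8% with knockout and 17.9% to 27.2% with overexpression. The share of Vegfc was 3.36% to 4.30% with knockout and 1.17% to 1.46% with overexpression. The 4 genes summed to 136 to 140 RPKM with knockout and to 111 to 125 RPKM with overexpression, without Vegfd, which averaged 12.7 and 1.35 RPKM. These shares are descriptions and were not tested.

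Nrp1 (ENSMUSG00000025810, chromosome 8, 128358604 to 128503363, plus strand) encodes neuropilin 1, a co-receptor of VEGF-A and of semaphorin 3A. It was at 235, 207 and 175 CPM with knockout and at 320, 290 and 316 CPM with overexpression. The lowest overexpression library, replicate 2, was above the highest knockout library, replicate 1. The rise was 1.5-fold, or 0.59 ± 0.16 (SE) in log2 terms (edgeR, adjusted p = 0.0235). Its exons hold the 80 bases of the microRNA gene Mir1903 on the same strand.

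Nrp2 (ENSMUSG00000025969, chromosome 1, 62703285 to 62818695, plus strand) encodes neuropilin 2, which binds VEGF-C and semaphorin 3F. It stood at 191, 193 and 156 CPM with knockout and at 255, 286 and 254 CPM with overexpression, again without overlap. Its log2 fold change (± SE) came to 0.56 ± 0.15, a 1.47-fold rise (edgeR, adjusted p = 0.0238). The ratio of Nrp1 to Nrp2, per length, was 1.30 to 1.49 with knockout and 1.23 to 1.52 with overexpression, so the balance of the neuropilins overlapped between the groups.

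The rise of the neuropilins was the least secure of the 6 calls. For Nrp1 the adjusted p was 0.0799 in the fit without knockout replicate 2, 0.101 without knockout replicate 3 and 0.0680 when overexpression replicate 3 was left out. Nrp2 exceeded 0.05 in the fits without knockout replicate 1, 2 or 3 or without overexpression replicate 3 (0.0545, 0.0587, 0.103 and 0.0538). In these fits the log2 fold change was 0.49 to 0.60 for Nrp1 and 0.47 to 0.62 for Nrp2. Scaling the libraries to the 12 keratinocyte and carcinoma markers turned the direction: the log2 fold change was then -0.71 for Nrp1 (adjusted p = 0.0609) and -0.75 for Nrp2 (adjusted p = 0.0502). That scaling moved the median of all tested genes from -0.02 to -1.35.

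**Figure D2:**
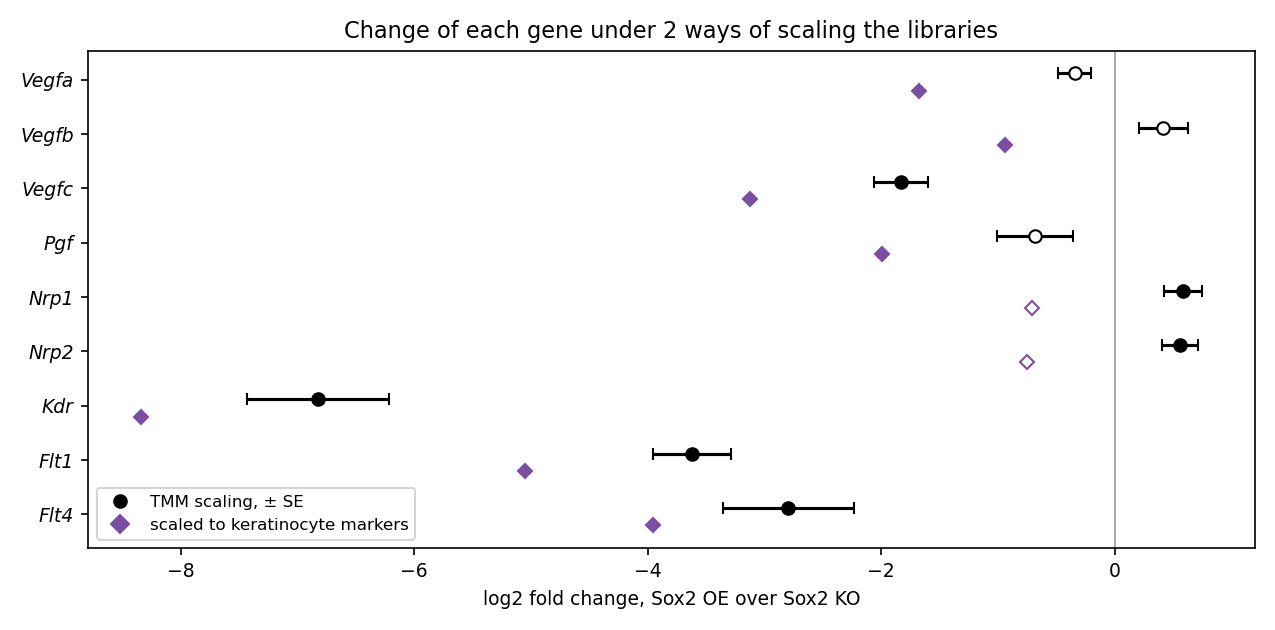
Log2 fold change of overexpression over knockout for each gene, with TMM scaling (circles, bars are the standard error) and with libraries scaled to keratinocyte and carcinoma markers (diamonds). Filled symbols have an adjusted p under 0.05. Vegfc, Kdr, Flt1 and Flt4 are below 0 and filled under both scalings, while Nrp1, Nrp2 and Vegfb change sign.

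Kdr (ENSMUSG00000062960, chromosome 5, 75932827 to 75978458, minus strand) encodes VEGFR2, the main signalling receptor of VEGF-A in endothelium, and had the strongest fall. It had 157, 233 and 563 counts in the knockout libraries (4.60, 7.70 and 15.4 CPM) and 2, 2 and 4 counts in the overexpression libraries (0.0610, 0.0677 and 0.101 CPM). The gene was thus near the limit of detection with overexpression, where 3 counts are 0.0759 to 0.101 CPM. The fitted log2 fold change (± SE) came to -6.82 ± 0.61 (edgeR, adjusted p = 5.79e-05). Summed over each group, 953 counts stood against 8, a rate 120-fold higher with knockout with an exact 95% interval from 60.8 to 280, which covers counting error only. Without knockout replicate 3 the knockout mean was 6.15 in place of 9.25 CPM and the log2 fold change -6.22.

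Flt1 (ENSMUSG00000029648, chromosome 5, 147561604 to 147726011, minus strand) encodes VEGFR1, which also exists as a soluble decoy. Counts per gene do not separate the soluble from the membrane form. Its level was 7.27, 7.54 and 10.1 CPM with knockout and 0.458, 0.744 and 0.809 CPM with overexpression. All overexpression libraries were under 1 CPM. The log2 fold change (± SE) came to -3.62 ± 0.33, or 12.3-fold lower (edgeR, adjusted p = 6.88e-05).

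Flt4 (ENSMUSG00000020357, chromosome 11, 49609263 to 49652739, plus strand) encodes VEGFR3, the receptor of VEGF-C. It was at 5.22, 3.01 and 1.23 CPM in the knockout libraries and at 0.458, 0.575 and 0.329 CPM in the overexpression libraries. The knockout libraries differed among themselves more than for Flt1, with replicate 1 highest and replicate 3 lowest, the reverse of the order for Kdr. The log2 fold change (± SE) came to -2.80 ± 0.56 (edgeR, adjusted p = 0.00548). Leaving out knockout replicate 1 gave a log2 fold change of -2.21 (adjusted p = 0.0141).

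Set in order by level per length, the knockout libraries had Vegfa first at 110 ± 4.49 RPKM (SD, n = 3), then Nrp1 at 21.01, Vegfb at 19.6, Nrp2 at 15.2, Vegfc at 5.39, Pgf at 2.22, Kdr at 1.02, Flt1 at 0.614 and Flt4 at 0.383 RPKM. The libraries of Nrp1 and Vegfb overlapped, as did those of each neighbouring pair from Pgf to Flt4. With overexpression the order of the first 6 was kept, at 87.2 RPKM for Vegfa, 31.5 for Nrp1, 26.2 for Vegfb, 22.4 for Nrp2, 1.52 for Vegfc and 1.38 for Pgf. There the ranges of Nrp1, Vegfb and Nrp2 overlapped from neighbour to neighbour, as did those of Vegfc and Pgf. The kinases followed with Flt4 at 0.0551 and Flt1 at 0.0496 RPKM, whose ranges overlapped, and Kdr last at 0.00848 RPKM, below both without overlap. Kdr thus went from the highest mean of the 3 kinases to the lowest, although the kinases' ranges overlapped with knockout. The 3 kinases together made up 4.03% to 7.75% of receptor RNA per length (kinases plus neuropilins) with knockout and 0.177% to 0.246% with overexpression, a value that describes both the fall of the kinases and the rise of the neuropilins.

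The kinases fell in the same libraries as markers of vessels. Of 16 endothelial markers other than the kinases, 13 were tested, and 11 were lower and 1 higher. Among all tested genes 18.0% were called lower and 13.6% higher. The median log2 fold change of the 13 markers was -4.12. Cdh5, the cadherin of endothelial junctions, had 186, 141 and 560 counts with knockout and 0, 1 and 3 with overexpression. Plvap, a protein of endothelial diaphragms, had 232, 268 and 734 counts with knockout and 0, 2 and 1 with overexpression. Plvap and Cdh5 had the largest falls of the tested markers (log2 fold changes -8.49 and -7.64). Pecam1 was also lower (-2.41), with 173, 268 and 1061 counts with knockout and 68, 69 and 144 with overexpression. The marker called higher was Mmrn2, at 22.5 ± 9.61 CPM with knockout and 89.6 ± 21.1 CPM with overexpression (SD, n = 3 each; log2 fold change 2.00, adjusted p = 0.00168, edgeR). Tek, the angiopoietin receptor, was at 22.9 ± 12.5 and 13.8 ± 3.95 CPM (SD, n = 3 each; adjusted p = 0.216, edgeR). Summed over all 16 markers the level was 67.2, 98.1 and 174 CPM with knockout and 88.6, 105 and 131 CPM with overexpression. Without Mmrn2, a choice made after its values were seen, the sums were 45.8, 65.6 and 160 CPM and 20.8, 14.1 and 20.6 CPM. In the overexpression libraries 9 of the 16 markers had at most 3 counts in every library. The part of endothelial RNA in the fall of the kinases was not tested.

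Within the knockout group, Kdr and Flt4 followed different markers from library to library. Knockout replicate 3 held 55.6% of the Kdr signal and 40.5% of the Flt1 signal of the 3 knockout libraries, and was also the highest for 14 of the 16 endothelial markers, with 60.3% of Cdh5 and 56.2% of Plvap. The exceptions were Cldn5 and Mmrn2. Knockout replicate 1 held 55.2% of the Flt4 signal and replicate 3 only 13.0%. The lymphatic markers Mmrn1, Reln and Prox1 were likewise highest in replicate 1 and lowest in replicate 3, with 76, 32 and 12 counts of Mmrn1, 58, 17 and 8 counts of Reln and 29, 22 and 0 counts of Prox1, the master regulator of lymphatic fate. Lyve1, the fourth lymphatic marker, at 0.570 and 0.827 CPM on average with knockout and overexpression (edgeR, adjusted p = 0.449), was also highest in replicate 1 but lowest in replicate 2. With 3 libraries these orders are descriptions, and the genes shown beside the kinases were picked from the lists after their values were seen. In the overexpression libraries Mmrn1 had no counts, at least 11.9-fold lower than with knockout against a floor of 3 counts in overexpression replicate 2. Without knockout replicate 1 this bound was 6.83-fold. There Prox1 and Reln, which did not pass the filter, had at most 2 counts. Replicate 3 also stood apart for white blood cell markers, whose sum over 11 genes was 29.9, 59.2 and 177 CPM with knockout and 14.1 to 28.7 CPM with overexpression. Of these 11 genes 8 were tested and 6 were lower, beside 18.0% of all tested genes. Ptprc (CD45) had 363, 654 and 3215 counts with knockout and 14, 16 and 20 with overexpression. The myeloid genes of this list went in both directions. Csf1r and Cd68 missed the threshold (edgeR, adjusted p = 0.103 and 0.356), and their means were higher with overexpression. Csf1r averaged 6.42 CPM with knockout and 11.65 CPM with overexpression, and Cd68 6.13 and 8.62 CPM. Exons of Csf1r overlap those of Hmgxb3 on the other strand. Lyz2, Itgam, Tyrobp and Fcer1g were called lower, with log2 fold changes of -3.22, -2.85, -6.45 and -5.97. Adgre1, which did not pass the filter, had 5, 24 and 36 counts with knockout and 0, 1 and 2 with overexpression. Exons of Itgam overlap those of Gm49368 on the same strand.

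**Figure D3:**
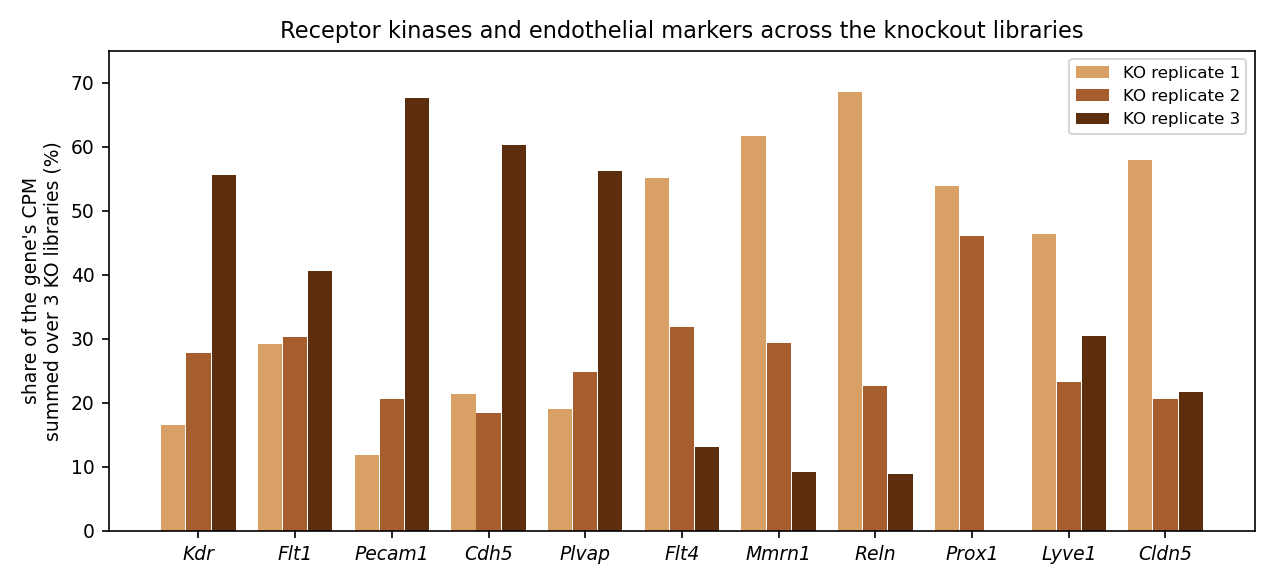
Share of each gene's CPM, summed over the 3 knockout libraries, that came from each of them (percent), for the receptor kinase genes and selected endothelial and lymphatic markers. Kdr, Flt1, Pecam1, Cdh5 and Plvap are highest in replicate 3, whereas Flt4, Mmrn1, Reln, Prox1, Lyve1 and Cldn5 are highest in replicate 1.

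Markers of other cells of the vessel wall and of stroma were mostly lower with overexpression too. Of 8 mural cell markers, 7 were lower and 1, Notch3, higher with overexpression, beside 18.0% and 13.6% of all tested genes. The Notch3 call was lost in the fits without knockout replicate 2 or 3 or overexpression replicate 2 or 3, and under the keratinocyte scaling. The most abundant were Pdgfrb, a receptor of pericytes and fibroblasts, at 206 ± 19.0 and 1.41 ± 0.113 CPM, and Acta2 at 182 ± 29.0 and 37.0 ± 15.6 CPM (SD, n = 3 each, knockout first). All 10 fibroblast markers were lower (median log2 fold change -7.81), beside 18.0% of all tested genes. The collagen genes Col3a1 and Col1a1 led the fibroblast markers, at averages of 26731 and 23308 CPM with knockout and 89.5 and 124 CPM with overexpression. Of the 12 keratinocyte and carcinoma markers 8 were higher, beside 13.6% of all tested genes. Krt8 was at 1862 and 3548 CPM and Krt18 at 813 and 1857 CPM on average, knockout first. The part of fibroblast RNA in the fall of Vegfc was not tested.

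VEGF-C must be cut to become active, by a complex in which CCBE1 brings the protease ADAMTS3 to it after cleavage by proprotein convertases. Of 7 genes for VEGF-D and for ligand processing, 5 were lower in the edgeR test and 0 higher. Among all tested genes 18.0% were called lower and 13.6% higher. The count of higher genes in the list was also 0 at an unadjusted p under 0.05 and with DESeq2. Its median log2 fold change was -4.07. Ccbe1 was at 76.6, 56.6 and 60.2 CPM with knockout and 3.20, 4.90 and 3.41 CPM with overexpression, or -4.07 in log2 terms (edgeR, adjusted p = 4.55e-06). Its exons overlap those of Gm15958 on the other strand. Adamts3 had 100, 89 and 107 counts with knockout and 5, 0 and 5 with overexpression, or -4.88 in log2 terms (edgeR, adjusted p = 0.000571). Adamts14, a related protease gene, and Pcsk5, a proprotein convertase gene, had log2 fold changes of -4.11 and -6.69. Vegfd, the other ligand of FLT4, fell from 30.6 ± 15.1 to 3.24 ± 0.704 CPM (SD, n = 3 each; log2 fold change -3.24, adjusted p = 0.000439, edgeR). Furin and Pcsk7, convertases of wide expression, were at 265 ± 21.01 and 332 ± 63.1 CPM and at 34.5 ± 1.06 and 30.4 ± 2.24 CPM, and did not pass the threshold (adjusted p = 0.194 and 0.350).

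Calls among the partners of the neuropilins went in both directions. Of 13 genes for class 3 semaphorins, plexins and the neuropilin adaptor Gipc1, 2 were higher and 6 lower. Among all tested genes 13.6% were called higher and 18.0% lower. The median log2 fold change of the 13 genes was -0.46. Sema3f, which encodes a ligand of neuropilin 2, went from 57.8 ± 13.1 to 113 ± 13.5 CPM (SD, n = 3 each; log2 fold change 0.97, adjusted p = 0.00503, edgeR), and Gipc1 changed by 0.88 in log2 terms (adjusted p = 0.00744). Both changed sign when the libraries were scaled to keratinocyte markers (-0.33 and -0.47). The lower genes with the smallest p-values were Plxna4, Sema3b and Sema3g, with log2 fold changes of -4.03, -4.87 and -4.21. Plxna4 exons overlap those of Plxna4os3 on the other strand. Plxna1 and Plxna3, plexins that pair with neuropilins, were at 168 ± 7.98 and 189 ± 10.2 CPM and at 36.5 ± 4.65 and 42.0 ± 3.96 CPM (SD, n = 3 each, knockout first), without passing the threshold. The count of lower genes was 3 without overexpression replicate 3.

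Downstream of the receptors, 37 signalling genes were tested, of which 9 were higher and 5 lower, beside 13.6% and 18.0% of all tested genes. Their median log2 fold change was 0.20. The higher genes with the smallest p-values were Shb, an adaptor that binds KDR, Bcar1, an adhesion scaffold, and Ppp3ca, a calcineurin subunit, with log2 fold changes of 1.17, 0.99 and 0.87 (adjusted p = 0.00113, 0.00251 and 0.00306, edgeR). Each of them changed sign under the keratinocyte scaling (-0.19, -0.35 and -0.46), where the list had 0 higher and 29 lower genes. Fyn, a Src family kinase, fell with a log2 fold change of -3.27, and Prkcb, a protein kinase C gene, with one of -3.76, or -2.71 without knockout replicate 3. Sh2d2a, an adaptor of KDR and of T cells, had 103, 205 and 1337 counts with knockout and 3, 8 and 6 with overexpression. Its log2 fold change was -6.49, or -4.82 without knockout replicate 3, the library with the most white blood cell markers. Nos3, the endothelial nitric oxide synthase, was at 0.410, 0.595 and 2.33 CPM with knockout and 0.183, 0.0338 and 0.253 CPM with overexpression (edgeR, adjusted p = 0.0347). Its knockout mean was 1.11 CPM, or 0.503 CPM without replicate 3, and its exons overlap those of Atg9b and Gm15587 on the other strand.

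Vegfa is a classical target of the hypoxia-inducible factors, so genes of oxygen sensing and hypoxia response were read beside it. Of 18 genes, 9 were higher and 2 lower, beside 13.6% and 18.0% of all tested genes. Their median log2 fold change was 0.45, while the log2 fold change of Vegfa itself was -0.34. Pdk1, a kinase that restrains pyruvate dehydrogenase, rose from 43.0 ± 1.79 to 109 ± 9.78 CPM (SD, n = 3 each; log2 fold change 1.34, adjusted p = 0.000137, edgeR). Bnip3 and Ndrg1, further hypoxia-induced genes with exons that overlap other genes on the opposite strand, had log2 fold changes of 1.75 and 1.08. Under the keratinocyte scaling the values were -0.01 for Pdk1, 0.33 for Bnip3 and -0.23 for Ndrg1, the list had 0 higher and 8 lower genes, and Vegfa was at -1.68 (adjusted p = 3.64e-05). The lower genes were Hif1a, at 136 ± 18.1 and 55.9 ± 16.9 CPM, and Adm, which encodes adrenomedullin, a peptide of vessel growth, at 36.2 ± 18.1 and 2.90 ± 0.833 CPM (SD, n = 3 each, knockout first). Their log2 fold changes were -1.28 and -3.64 (adjusted p = 0.00326 and 0.000257, edgeR). Exons of Hif1a overlap those of Gm49321 and Gm15283. Epas1, which encodes HIF-2 alpha, rose from 73.7 ± 5.74 to 116 ± 19.7 CPM (adjusted p = 0.0168).

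Among 8 genes of endothelial tip cells and of the VEGF response, 6 were tested. Of these, 1 was higher and 2 were lower, beside 13.6% and 18.0% of all tested genes. Egr3 rose by 1.58 on the log2 scale (edgeR, adjusted p = 0.00214), or 0.33 under the keratinocyte scaling (adjusted p = 0.380). Dll4, a Notch ligand of tip cells whose exons overlap those of Gm14207, and Rcan1, a calcineurin inhibitor, had log2 fold changes of -1.88 and -0.62 (adjusted p = 0.0231 and 0.0412). Neither call held in every fit, since each of these p-values exceeded 0.05 in 4 of the 6 fits that left out 1 library, up to 0.0815 and 0.151. Angpt2, Apln and Unc5b had adjusted p-values of 0.145, 0.673 and 0.102.

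**Figure D4:**
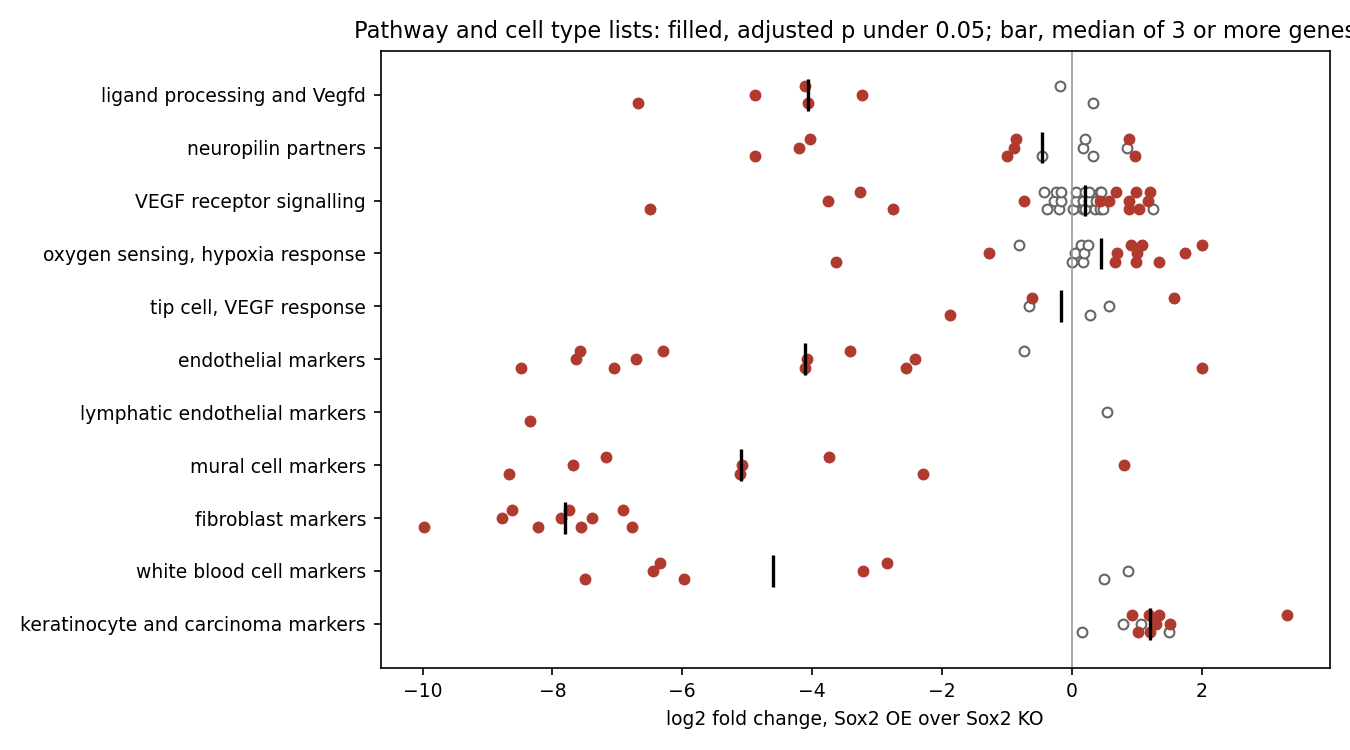
Log2 fold change of overexpression over knockout for the tested genes of each pathway and cell type list, with TMM scaling. Filled points have an adjusted p under 0.05 and bars are medians of lists with 3 or more tested genes. Fibroblast, mural, white blood cell and endothelial markers sit mostly far to the left and keratinocyte markers to the right of 0, while receptor signalling genes lie around a median of 0.20. The point near -8 among lymphatic markers is Mmrn1, which had no counts with overexpression, so its position depends on the fit.

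The genes whose pattern over the 6 libraries was most like that of Vegfa, by the root mean square difference of centred log2 CPM among 12378 genes, were Dync1h1 (0.0262), Asxl1 (0.0279) and Stk36 (0.0362). Nrp1 was most like Mfsd14a (0.0424), Sertad2 (0.0485) and Sik1 (0.0515). Among these candidates Kdr had no neighbour as close. Eln, which encodes elastin, was nearest at 0.216, then Rassf2 at 0.275 and Lpl, the lipoprotein lipase gene, at 0.309. The 12378 candidates were those of the 18504 tested genes that reached a minimum mean level over the libraries. Genes as low as Kdr, among them Cdh5 and Plvap, were left out. Whether such genes were nearer to Kdr was therefore not tested. Eln went from 486 ± 198 to 4.76 ± 1.65 CPM (SD, n = 3 each). The measure is a description over 6 libraries in 2 groups.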

How the data were processed

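RNA of 6 PDVC57 libraries was sequenced after preparation with a low-input kit, per the labels' protocols. The deposited values are raw counts per gene, whole numbers without normalization. The submitters' processing notes list kallisto 0.44.0 and mm10 without a role, and the step that gave whole numbers, the gene annotation and strandedness are not given in the sources used here, so reads of overlapping genes may be shared. A total of 96 rows that name no mouse gene (at most 2.23e-05% of counts) were left out. Symbols matched 55144 of 55385 gene IDs, and positions and union exon lengths are those of GENCODE M21 (GRCm38).

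The filterByExpr filter of edgeR (count 10, total 15) left 18504 genes, which were normalized with TMM and tested with edgeR 4.0.16 in R 4.3.3 (quasi-likelihood, group as the only term, Benjamini-Hochberg over all tested genes, threshold 0.05). Fold changes are overexpression over knockout and the standard error is the log2 fold change divided by the root of F. CPM uses TMM library sizes. Alternatives were RLE size factors, scaling to keratinocyte and carcinoma markers, no filter, the replicate block, DESeq2 1.42.0 and leaving out each library. On simulated counts for the 18504 genes, 200 genes were changed and the fit called 100 of them. It called 69 of 105 genes changed 4-fold, with 4 false among 104 calls. In the data 5848 genes were called, far more than were changed in the simulation. The simulation therefore cannot give the share of false calls here.

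The 9 genes, the lists and the tests were chosen with earlier results of these data known. Named were all 9 genes, Sox2, the 3 genes of smallest p in each direction of each pathway list, the 2 most abundant markers of each cell type list and the 3 nearest patterns of Vegfa, Nrp1 and Kdr. Other genes were named after their values were seen. No replicate pair agreed within sampling noise (smallest chi-square per degree of freedom 42.5).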

Additional observations from a re-analysis of the deposited data

Results flagged for a closer look

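The row for the reporter mCherry, which names no mouse gene and entered no comparison, had 8 counts in knockout replicate 3, above the 3 counts that a count of 0 allows, 1 count in knockout replicate 2 and 0 in the other libraries.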

How the results depend on the processing

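Vegfc, Kdr, Flt1 and Flt4 kept their direction and an adjusted p under 0.05 under every alternative run. Scaling to keratinocyte and carcinoma markers moved the most: it called 13860 genes in place of 5848, with 299 higher in place of 2519 and 13561 lower in place of 3329, so that 2.16% in place of 43.1% of calls were higher. Of the 9 genes it called 0 higher in place of 2 and 7 lower in place of 4. Of 31 single genes it turned the direction of 10: Vegfb (-0.94), Nrp1 (-0.71), Nrp2 (-0.75), Sema3f (-0.33), Gipc1 (-0.47), Shb (-0.19), Bcar1 (-0.35), Ppp3ca (-0.46), Pdk1 (-0.015) and Ndrg1 (-0.23). When each library was left out, the number of genes called higher ranged from 1446 (without knockout replicate 2) to 2599, and was 1610 without knockout replicate 3. The members of the axis called higher ranged from 0 to 2, with 4 called lower each time. RLE factors, no filter and DESeq2 changed no call among the 31 genes. With the replicate block 5593 genes were called and no call among the 31 changed. Deviations of same-numbered libraries correlated at 0.0506, 0.0105 and -0.0376, so the numbers gave no sign of pairing. When a library was left out, list counts that moved by over 1.5 times included lower tip cell genes (0 to 2, reported 2), lower neuropilin partners (3 to 5, reported 6), lower lymphatic markers (1 to 3, reported 1) and higher mural markers (0 to 1, reported 1). Kdr with overexpression rests on 8 counts in all, which limits the precision of its fold.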
